A study of Mus musculus with 12 samples.

Results

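App encodes the amyloid precursor protein APP, and Aplp1 and Aplp2 encode its relatives, the amyloid precursor-like proteins. Of the 45037 probe sets of a mouse expression array, 12 are described here. The first 11 were selected by annotation alone, because the platform annotation names App (4 probe sets), Aplp1 (2) or Aplp2 (5) as their only gene. The remaining one has no gene in that annotation and is called the unassigned probe set here. It was chosen by its measured signal, namely its genotype differences in cortex and in hippocampus, which are therefore given below as a description without a test.

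The proteins of this family cross the cell membrane once and have a large ectodomain and a short intracellular tail. Alpha-secretases cut APP within the amyloid beta stretch and release the ectodomain APPsα, whereas beta- and then gamma-secretase cuts release amyloid beta, a stretch that APLP1 and APLP2 do not share. APLP1 is found mainly in the nervous system and APLP2 in most tissues, and the functions of APP and APLP2 overlap, since mice without both die soon after birth.

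One genotype was APPsα-DM (APPα/αAPLP2-/-), whose Aplp2 is knocked out and both App alleles are edited. In these alleles, as they are generally described, a stop codon follows the alpha-secretase site, so that APPsα is made without the membrane anchor and the tail. The other, APLP2-KO (APLP2-/-), had unedited App. All were females of 38 to 40 weeks on a C57BL/6 background after 6 generations of back-crossing. Hippocampus and prefrontal cortex were taken from 3 mice of each genotype, which gave 12 arrays in 4 groups of 3, and no wild type was analysed here. Every group thus lacks intact Aplp2, in every cell, and nothing below compares the presence with the absence of Aplp2.

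Values are log2 signals after RMA, a method that corrects the background, brings the arrays to 1 distribution and summarises the probes of a set. A probe set reads its own target with its own probes, so that levels of different probe sets are not set against each other. In an identifier, the ending _a_at marks probes shared by transcript variants of 1 gene, and _s_at and _x_at mark probe sets of which some or all probes can also match transcripts of other genes. Probe sets of a gene share their target and are not independent measurements. The tissue is a mixture of cells, in which fewer cells of a type and less RNA per cell cannot be told apart.

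Markers were read against the tissue labels. All 13 hippocampal neuron markers were above 0 in the difference hippocampus minus cortex, and 12 passed the threshold in APPsα-DM and 13 in APLP2-KO (medians 1.44 and 1.43 log2 units). Of 11 cortical neuron markers, 8 were below 0 and 3 above 0 in each genotype. Past the threshold, 7 were lower and 2 higher in APPsα-DM hippocampus, and 8 were lower and 2 higher in APLP2-KO hippocampus. All 12 striatal markers measured passed as lower in hippocampus than in cortex in both genotypes. The cortex pieces carried striatal transcripts such as Drd1, a dopamine receptor gene, at 9.94 to 10.50 in APPsα-DM cortex and 9.85 to 10.15 in APLP2-KO cortex. Choroid plexus, a tissue that borders the hippocampus, varied within groups: the mean of 18 markers ran from 5.74 to 7.97 in APPsα-DM hippocampus, 5.57 to 7.06 in APLP2-KO hippocampus, 5.22 to 7.21 in APPsα-DM cortex and 5.15 to 6.81 in APLP2-KO cortex. Its most abundant transcript, Ttr, was at 14.18 in APPsα-DM cortex 2 and 14.03 in APLP2-KO cortex 3, against 8.20 to 9.42 in the other cortex arrays. Between the genotypes no marker of these lists passed the threshold. By sign, the 18 choroid plexus markers were all above 0 in APPsα-DM minus APLP2-KO hippocampus (median 0.79) and 13 in cortex (median 0.15). Of 12 endothelial and pericyte markers, 12 were above 0 in hippocampus (median 0.23) and 11 in cortex (median 0.07). In cortex, 11 of 12 striatal markers were above 0 (median 0.21) and 10 of 11 cortical neuron markers below 0 (median -0.12). The part of these differences in the results below was not tested, apart from the choroid plexus score. As a measure of signal without target, 6 Y-linked genes read between 2.44 and 6.10 in these female mice.

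The genes lie on different chromosomes, App on 16, Aplp1 on 7 and Aplp2 on 9. Their upstream regions are shown as background on the genes whose signals are compared here, and what these regions regulate was not tested. They are the 250 bases before the start site that RefSeq's table for GRCm38.p6 lists, all on the minus strand, at chr16:85173708-85173957 (App), chr7:30445583-30445832 (Aplp1) and chr9:31211849-31212098 (Aplp2), with GC boxes (GGGCGG on either strand) in capitals.
App: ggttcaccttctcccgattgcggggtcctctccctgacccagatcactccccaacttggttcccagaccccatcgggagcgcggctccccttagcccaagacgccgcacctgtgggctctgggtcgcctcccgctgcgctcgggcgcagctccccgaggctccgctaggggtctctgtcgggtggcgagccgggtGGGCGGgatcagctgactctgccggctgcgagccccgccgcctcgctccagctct
Aplp1: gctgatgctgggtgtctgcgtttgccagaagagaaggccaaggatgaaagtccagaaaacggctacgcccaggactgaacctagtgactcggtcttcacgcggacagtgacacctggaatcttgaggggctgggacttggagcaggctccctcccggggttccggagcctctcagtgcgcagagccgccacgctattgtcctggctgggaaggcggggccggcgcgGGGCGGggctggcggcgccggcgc
Aplp2: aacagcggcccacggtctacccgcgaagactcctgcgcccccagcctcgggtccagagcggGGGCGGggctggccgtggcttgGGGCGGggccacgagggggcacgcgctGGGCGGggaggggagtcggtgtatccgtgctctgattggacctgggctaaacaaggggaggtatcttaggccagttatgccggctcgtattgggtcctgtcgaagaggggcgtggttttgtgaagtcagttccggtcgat

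The App window held 1 GC box, that of Aplp1 1 and that of Aplp2 3, and a GC box stood in 32.9% of the 27025 windows of the table (1 per gene). None of the 3 windows held the letters TATAAA on either strand, which stood in 13.0% of all windows. The GC content was 70.8% for App, 66.0% for Aplp1 and 66.4% for Aplp2, against a median of 52.0% over all windows. A letter match is a description and says nothing of a factor at work there.

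App was the member that changed most between the genotypes. Probe set 1420621_a_at read 7.87, 7.95 and 7.98 in the 3 arrays of APPsα-DM hippocampus, against 12.61, 12.50 and 12.49 in APLP2-KO hippocampus. In cortex it read 8.20, 7.70 and 7.98 in APPsα-DM and 12.52, 12.77 and 12.60 in APLP2-KO. No array of either genotype came near the other, in either tissue. The fall was -4.60 ± 0.11 log2 units in hippocampus (SE, n = 3 each), or 24.3-fold with a 95% interval of 20.5 to 28.7, and 25.4-fold in cortex with an interval of 21.5 to 30.1. The remaining signal of about 8 on the log2 scale lay above 6.10, the highest value of the 6 Y-linked probe sets read here. The background of 1420621_a_at itself is not known.

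The App probe set 1427442_a_at fell far less. Its values were 11.54, 11.46 and 11.66 in APPsα-DM hippocampus against 13.49, 13.44 and 13.47 in APLP2-KO hippocampus, and 11.83, 11.73 and 11.83 in APPsα-DM cortex against 13.38, 13.50 and 13.50 in APLP2-KO cortex. The genotypes did not overlap. The difference was -1.91 ± 0.07 in hippocampus (3.76-fold, 95% interval 3.39 to 4.17) and -1.67 ± 0.07 in cortex (3.17-fold, 2.86 to 3.52). These were the 2 calls among the 11 annotated probe sets in each tissue by limma's moderated test (adjusted p = 7.06e-10 and 3.10e-08 in hippocampus, 5.90e-10 and 1.62e-07 in cortex, for 1420621_a_at and 1427442_a_at in this order). Over all probe sets, 0.00888% were called in hippocampus and 0.00888% in cortex. With the choroid plexus score as a covariate the differences were -4.53 and -1.92 in hippocampus and -4.65 and -1.67 in cortex, and all remained called.

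**Figure D1:**
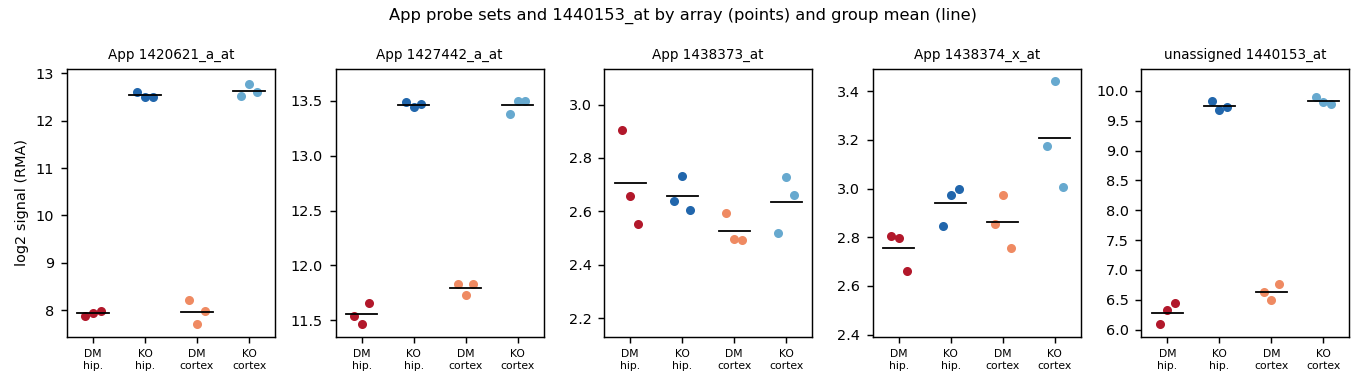
Log2 signal of the 4 App probe sets and the unassigned probe set in each array (points) with the group mean (line), for APPsα-DM (DM) and APLP2-KO (KO) in hippocampus (hip.) and cortex, with an axis range of its own in each panel. For 1420621_a_at, 1427442_a_at and the unassigned probe set every APPsα-DM array lies below every APLP2-KO array, whereas 1438373_at and 1438374_x_at stay below 3.5.

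How unequal the fall of the 2 bright App probe sets was can be read within each array, from 1427442_a_at minus 1420621_a_at. This difference was 3.52 to 3.67 log2 units in APPsα-DM hippocampus against 0.88 to 0.97 in APLP2-KO hippocampus, and 3.63 to 4.03 in APPsα-DM cortex against 0.73 to 0.91 in APLP2-KO cortex. It was wider by 2.69 in hippocampus and by 3.00 in cortex in APPsα-DM, without overlap. The two-sided exact permutation p was 0.1 in each tissue, the smallest that 3 against 3 arrays can give. The 2 probe sets of this gene thus gave very different genotype differences on the same arrays. In APLP2-KO 1427442_a_at averaged 13.46 in both tissues, and the highest value of any probe set was 14.36. Whether the upper end of the scale limits the size of its fall was not tested. Where the probes of the 2 sets lie relative to the edited part of App was not analysed here.

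The other App probe sets were at the level of the Y-linked probe sets. 1438373_at ran from 2.49 to 2.90 over all 12 arrays, with the genotypes overlapping in both tissues. 1438374_x_at read 2.80, 2.80 and 2.66 in APPsα-DM hippocampus against 2.85, 2.97 and 3.00 in APLP2-KO hippocampus, and 2.85, 2.97 and 2.75 in APPsα-DM cortex against 3.18, 3.44 and 3.01 in APLP2-KO cortex. The genotypes did not overlap in either tissue, yet the differences of -0.19 ± 0.10 and -0.35 ± 0.10 did not pass over all probe sets (limma's adjusted p = 0.9998 in hippocampus and 0.9996 in cortex). In cortex 1438374_x_at stood at rank 186 of 45037 by unadjusted p (0.00559).

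The unassigned probe set had the pattern of the bright App probe sets. It read 6.09, 6.32 and 6.45 in APPsα-DM hippocampus against 9.83, 9.68 and 9.73 in APLP2-KO hippocampus, and 6.63, 6.50 and 6.77 in APPsα-DM cortex against 9.89, 9.81 and 9.77 in APLP2-KO cortex. The mean differences were -3.46 in hippocampus and -3.19 in cortex, between those of the 2 bright App probe sets. Its APPsα-DM values lay at or little above 6.10, the highest value of the Y-linked probe sets, which came from Sry. They were above the mean of these probe sets, 3.72 to 3.89 by array. The background of the unassigned probe set itself is not known, and whether it limits the size of the fall was not tested. Over the 12 arrays its Pearson correlation with App 1427442_a_at was 0.9973, the highest of the 45036 other probe sets, and App 1420621_a_at followed with 0.9943. These values are a description: the 12 points fall into genotypes and tissues, and the probe set was picked for its genotype difference. What transcript it reads is not given by the annotation used here.

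Neither Aplp1 nor Aplp2 differed between the genotypes past the threshold. Aplp1 1435857_s_at read 13.17, 13.18 and 13.18 in APPsα-DM hippocampus against 13.17, 13.20 and 13.22 in APLP2-KO hippocampus, and 13.15, 13.18 and 13.16 in APPsα-DM cortex against 13.21, 13.26 and 13.19 in APLP2-KO cortex. All 12 values lay within 0.11 log2 units of each other, the smallest range of any member. Its difference was -0.02 (95% interval -0.14 to 0.10) in hippocampus and -0.06 (-0.18 to 0.06) in cortex. In cortex the APPsα-DM arrays were all just below the APLP2-KO arrays.

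For Aplp1 1416134_at the values were 11.89, 11.99 and 11.92 in APPsα-DM hippocampus against 11.88, 11.87 and 11.94 in APLP2-KO hippocampus. In cortex they were 11.90, 11.97 and 11.98 in APPsα-DM against 12.03, 11.98 and 12.02 in APLP2-KO, all of the APPsα-DM values lower by a small margin. The difference had opposite signs in the tissues, 0.04 (-0.09 to 0.17) in hippocampus and -0.06 (-0.19 to 0.07) in cortex. For both Aplp1 probe sets, differences above 0.17 or below -0.19 log2 units thus lay outside the intervals.

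Aplp2, the gene knocked out in every mouse of the study, still gave signal. 1421887_a_at read 9.89, 9.84 and 10.09 in APPsα-DM hippocampus against 9.85, 10.03 and 10.14 in APLP2-KO hippocampus, and 10.13, 10.13 and 9.91 in APPsα-DM cortex against 9.98, 10.13 and 10.15 in APLP2-KO cortex. The 4 groups overlapped. 1423739_x_at ran from 9.72 to 10.15 over the 12 arrays, 1421888_x_at from 6.45 to 6.82 and 1421889_a_at from 6.26 to 6.67. 1432344_a_at ran from 4.18 to 5.10, within the range of the Y-linked probe sets but above their mean by array, 3.72 to 3.89. Which part of the disrupted gene these probes read was not analysed here, and without a wild type the share of Aplp2 RNA that is left cannot be given.

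Of the 5 Aplp2 probe sets, the genotype differences ran from -0.08 to 0.00 in hippocampus and from -0.27 to -0.03 in cortex, none past the threshold. The widest interval was that of 1432344_a_at in cortex, from -0.66 to 0.11, and the narrowest in cortex that of 1423739_x_at, from -0.22 to 0.06. For the 4 other probe sets, differences above 0.19 or below -0.30 log2 units lay outside the intervals in both tissues. Limma's adjusted p for every Aplp1 and Aplp2 probe set was 0.9998 in hippocampus and 0.9996 in cortex.

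**Figure D2:**
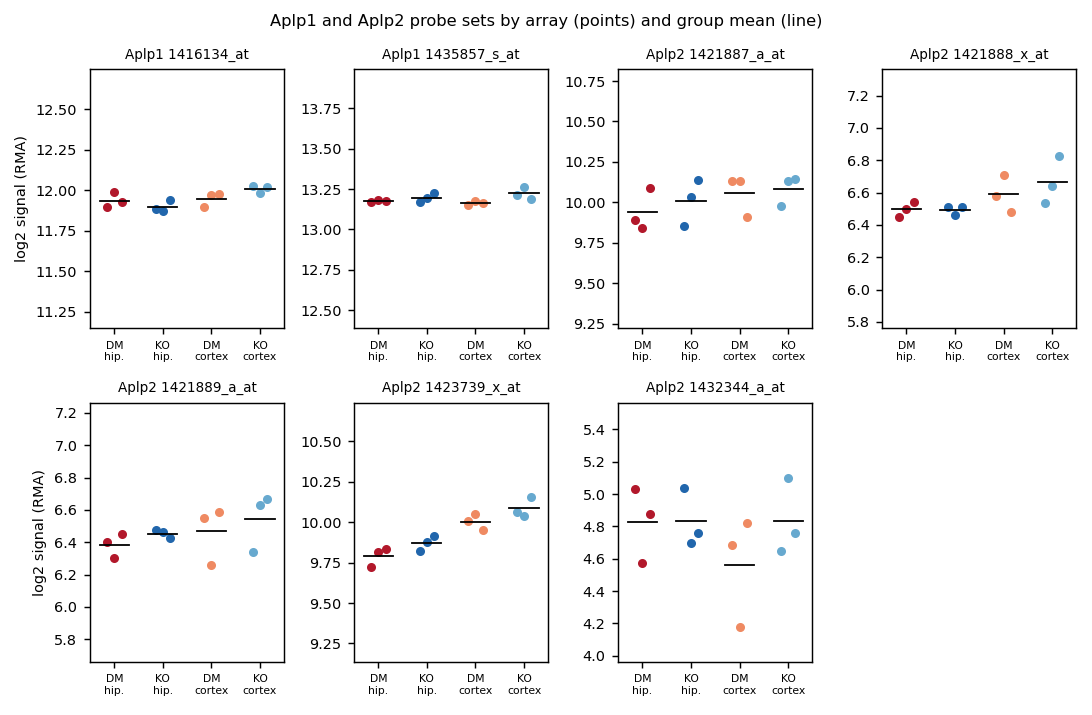
Log2 signal of the 2 Aplp1 and 5 Aplp2 probe sets in each array (points) with the group mean (line), on axes of equal length centred on each probe set's mean. The genotypes lie close together in every panel, and 1423739_x_at is lower in hippocampus than in cortex in both genotypes.

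**Figure D3:**
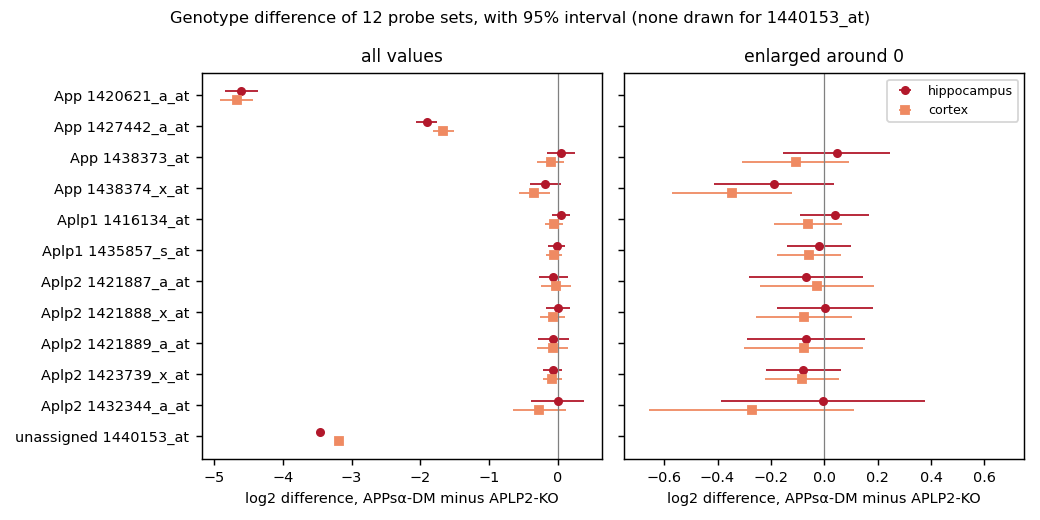
Log2 difference APPsα-DM minus APLP2-KO of the 12 probe sets in hippocampus (circles) and cortex (squares), with 95% intervals from limma except for the unassigned probe set, over the full range (left) and enlarged around 0 (right). App 1420621_a_at lies at -4.60 in hippocampus and -4.67 in cortex, the unassigned probe set at -3.46 in hippocampus and -3.19 in cortex and App 1427442_a_at between -1.91 and -1.67, while the Aplp1 and Aplp2 intervals all cover 0.

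Whether the family's signal differs between hippocampus and cortex was asked within each genotype. In APPsα-DM 10.6% of all probe sets were called and 2 of the 12 members, and in APLP2-KO 12.6% of all probe sets and 1 of the 12 members. All 3 calls were lower in hippocampus. Beside these shares of the whole array, so few calls are no result about the family.

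App 1427442_a_at was lower in APPsα-DM hippocampus than in APPsα-DM cortex, by -0.24 ± 0.07 (limma's adjusted p = 0.0424, groups not overlapping). In APLP2-KO the same probe set had a difference of 0.00 (95% interval -0.15 to 0.15). The unassigned probe set differed by -0.35 ± 0.10 in APPsα-DM (adjusted p = 0.0374) and by -0.08 ± 0.10 in APLP2-KO (adjusted p = 0.698). Both APPsα-DM calls were close to the threshold. They ended without cortex 1 (adjusted p = 0.124 for App and 0.0928 for the unassigned probe set), hippocampus 1 (0.107 and 0.136), hippocampus 2 (0.141 and 0.0667) or cortex 3 (0.113 and 0.127), with only the 6 arrays compared (0.119 and 0.112), and with the choroid plexus score as a covariate (0.0793 and 0.136). Leaving out APPsα-DM cortex 2 and APLP2-KO cortex 3, whose Ttr was high, ended the App call (0.0587). With the replicate number as a block the App call ended too (0.0669).

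The other bright App probe set, 1420621_a_at, showed no such tissue difference past the threshold. It differed between hippocampus and cortex by -0.03 (-0.27 to 0.22) in APPsα-DM and by -0.09 (-0.34 to 0.15) in APLP2-KO. From low to high, its group means were 7.93 ± 0.06 (SD) in APPsα-DM hippocampus, 7.96 ± 0.25 in APPsα-DM cortex, 12.53 ± 0.06 in APLP2-KO hippocampus and 12.63 ± 0.13 in APLP2-KO cortex. Only the step between the genotypes was larger than the spread. For 1427442_a_at the order was the same below, with 11.55 ± 0.10 in APPsα-DM hippocampus and 11.80 ± 0.06 in APPsα-DM cortex, and the APLP2-KO tissues were alike at 13.46.

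Aplp2 1423739_x_at was lower in APLP2-KO hippocampus than in APLP2-KO cortex. It read 9.82, 9.88 and 9.92 in hippocampus against 10.06, 10.04 and 10.15 in cortex, a difference of -0.22 ± 0.06 (limma's adjusted p = 0.0458). In APPsα-DM it read 9.72, 9.82 and 9.84 in hippocampus against 10.01, 10.05 and 9.95 in cortex, a difference of nearly the same size, -0.21 ± 0.06, that did not pass (adjusted p = 0.0580). In both genotypes the tissues did not overlap. With the replicate number as a block (replicate block), the APLP2-KO call ended (adjusted p = 0.0849), and it ended without any 1 of the 6 arrays (adjusted p from 0.0685 to 0.153). Another Aplp2 probe set, 1421887_a_at, differed by -0.08 in APLP2-KO and by -0.11 in APPsα-DM, with intervals that cover 0.

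Aplp1 had no tissue difference past the threshold: 1435857_s_at differed by 0.01 (-0.11 to 0.13) in APPsα-DM and by -0.03 (-0.15 to 0.09) in APLP2-KO. 1416134_at differed by -0.01 (-0.14 to 0.12) in APPsα-DM and by -0.11 (-0.24 to 0.02) in APLP2-KO. The dim App 1438374_x_at differed by -0.27 ± 0.10 in APLP2-KO (adjusted p = 0.125) and passed without APLP2-KO cortex 3 (-0.37, adjusted p = 0.0394).

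**Figure D4:**
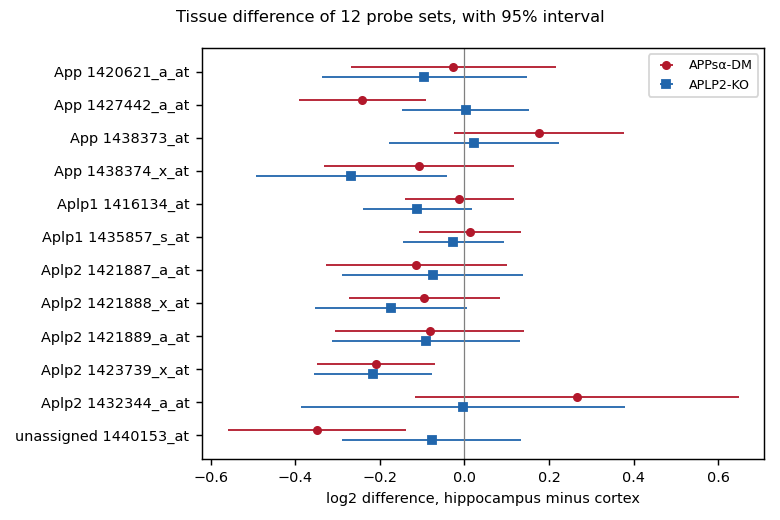
Log2 difference hippocampus minus cortex of the 12 probe sets in APPsα-DM (circles) and APLP2-KO (squares), with 95% intervals from limma. Most intervals cover 0. App 1427442_a_at and the unassigned probe set lie below 0 in APPsα-DM, and Aplp2 1423739_x_at lies at -0.21 in APPsα-DM and -0.22 in APLP2-KO.

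No member passed the test of whether its genotype difference differed between the tissues. Limma called 0 of 45037 probe sets (0%), with 1705 (3.79%) at an unadjusted p under 0.05, and 0 with a trended and robust variance. App 1427442_a_at fell further in hippocampus than in cortex by 0.24 log2 units (difference -0.24 ± 0.10, unadjusted p = 0.0274, adjusted p = 0.9998). For 1420621_a_at the difference was 0.07 ± 0.16. That of the unassigned probe set was -0.27, given without a test.

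By likeness of pattern, 8 genes were named for App: those with the 5 highest and 3 lowest correlations with 1427442_a_at over the 12 arrays, among 18190 genes. As 1427442_a_at itself differs mostly by genotype, this ranking largely picks genes by their genotype difference in the same arrays. It is a description, and the genotype differences of the genes named are no separate support for it. Senp7 (r = 0.95), a SUMO protease gene, Slc35a5 (0.94), a solute carrier gene, and Cpox (0.86), which encodes an enzyme of heme synthesis, lie like App on chromosome 16, and Sh3pxd2b (0.86) and Gpr75 (0.84) lie on chromosome 11. At the other end were Timmdc1 (-0.96), a mitochondrial gene needed to assemble complex I, and Ift57 (-0.89), a gene of intraflagellar transport, on chromosome 16 and B9d1 (-0.92) on chromosome 11. Of the 8 genes 5 lie on chromosome 16, which holds 3.28% of the genes ranked. Of these 8, only Timmdc1 passed between the genotypes, at 0.89 ± 0.10 in hippocampus (adjusted p = 0.00909) and 0.84 ± 0.10 in cortex (adjusted p = 0.0162). Its call ended in hippocampus without APLP2-KO hippocampus 2 or 3 or APPsα-DM hippocampus 1 or 2 (adjusted p from 0.0597 to 0.0894), and in cortex without APLP2-KO cortex 2 or 3 or any APPsα-DM cortex array (0.112 to 0.170). The next by adjusted p was B9d1 in hippocampus (0.54 ± 0.08, adjusted p = 0.186) and Slc35a5 in cortex (-0.39 ± 0.08, adjusted p = 0.641), neither passing. In hippocampus Slc35a5 differed by -0.40 ± 0.08 (adjusted p = 0.626).

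Over the 12 arrays Aplp1 1435857_s_at spanned 0.11 log2 units and Aplp2 1421887_a_at 0.30, and the same ranking is given for them as a description. The genes most like Aplp1 1435857_s_at were Gm35961, Eva1a, Pdxdc1, Foxd3 and 4930566D17Rik, and those most like Aplp2 1421887_a_at were Slco1b2, Cyp4f18, Dyrk1b, Adh4 and 1700023G09Rik, with r from 0.84 to 0.90 in all. Other probe sets of the same gene were less alike than these. Aplp1 1416134_at correlated at 0.38 with 1435857_s_at, and the other Aplp2 probe sets at -0.23 to 0.64 with 1421887_a_at. The mean signals of the genes named in these ways, lowest correlations included, lay between 2.29 and 9.34 in the case of Aplp1 and between 3.32 and 7.28 in that of Aplp2. The correlation of App 1427442_a_at was 0.63 with Aplp1 1435857_s_at and 0.26 with Aplp2 1421887_a_at, over points that share the 4 groups.

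The genes that cut, bind or sort APP did not differ between the genotypes past the threshold: 0 of 14 secretases and proteases measured, 0 of 20 adaptors of the intracellular domain and 0 of 24 ectodomain partners and sorting receptors were called in either tissue, with 0.00888% called over the array in each. The medians of the 3 lists lay between 0.02 and 0.06 log2 units in hippocampus and between -0.04 and 0.01 in cortex, against -0.003 and 0.004 over all probe sets. In the secretase list Bace2, a relative of the beta-secretase gene, differed by -0.19 ± 0.10 in hippocampus and 0.36 ± 0.10 in cortex (adjusted p = 0.9998 and 0.9996). Among the adaptors Dab2, an endocytic adaptor gene, differed by 0.40 ± 0.23 in hippocampus and Numbl by -0.16 ± 0.09 in cortex, neither past the threshold. Among the partners Reln, which encodes the extracellular protein reelin, differed by 0.28 ± 0.12 in cortex (adjusted p = 0.9996).

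Between the tissues, where 10.6% of all probe sets were called in APPsα-DM and 12.6% in APLP2-KO, some genes of the same lists passed. Of the 14 secretases and proteases, 3 were called lower and 0 called higher in hippocampus in each genotype, and by sign 8 were below and 6 above 0. The third call was Bace2 in APPsα-DM (adjusted p = 0.0189) and Lgmn, a lysosomal protease gene, in APLP2-KO (adjusted p = 0.0297). The Bace2 call ended without APPsα-DM hippocampus 1 (0.0789) or cortex 2 (0.0674), and the Lgmn call without APLP2-KO cortex 1 or 3 or hippocampus 2 or 3 (0.0683 to 0.121) and with the replicate block (0.0696). Mme, which encodes the amyloid beta-degrading enzyme neprilysin, was lower by -1.31 ± 0.23 in APPsα-DM and -1.32 ± 0.23 in APLP2-KO (adjusted p = 0.00230 and 0.00190). Aph1a, which encodes a gamma-secretase subunit, was lower by -0.59 ± 0.11 and -0.85 ± 0.11 (adjusted p = 0.00269 and 0.000148).

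Of the 20 adaptors, 6 were called lower and 1 called higher in APPsα-DM hippocampus, and 5 lower and 1 higher in APLP2-KO hippocampus, beside 10.6% and 12.6% called over the array. By sign, 15 and 17 were below 0. Numb, an endocytic adaptor gene, was lower by -0.79 ± 0.07 and -0.88 ± 0.07 (adjusted p = 9.40e-06 and 3.43e-06), and Dab1, which encodes an adaptor of reelin signalling, was higher by 0.47 ± 0.08 and 0.50 ± 0.08 (adjusted p = 0.00283 and 0.00166). Of the 24 partners, 4 were called higher and 4 lower in APPsα-DM hippocampus, and 3 higher and 4 lower in APLP2-KO hippocampus, beside the same shares of the array. By sign, 13 and 12 were above 0. Sorcs1, a sorting receptor gene, was lower by -1.61 ± 0.13 and -1.80 ± 0.13 (adjusted p = 5.71e-06 and 1.91e-06). Spon1, which encodes the matrix protein F-spondin, was higher by 0.46 ± 0.07 and 0.60 ± 0.07 (adjusted p = 0.00144 and 0.000151).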

How the data were processed

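The deposited log2 values came from RMA in affy, as per the submitters' processing notes. Versions of both, and whether all arrays were normalized together, are not stated there. The 45101 probe sets held 64 controls, which were left out. Of the 45037 tested, 34945 had 1 gene symbol, 932 several and 9160 none, and 34741 were matched to the reference table (GRCm38.p6). In R 4.3.3, limma 3.58.1 fitted the 4 group means over 12 arrays (8 residual degrees of freedom) and moderated the variances with eBayes. p-values are two-sided, adjusted by Benjamini-Hochberg over all probe sets, and called under 0.05. The number of arrays limits precision: the median SE of a difference was 0.0938. Labels do not say that replicates are separate preparations, but the series design gives 3 mice per genotype.

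Probe sets of a gene are read separately, and lists use the brightest probe set of each gene. Named were all members, likeness genes and some genes of each pathway list. The latter were picked from up to 4 genes past the threshold or else from those with the smallest p, so that genes with smaller p can be unnamed. The unassigned probe set is 1440153_at. Members and lists were chosen with earlier results of these data known. The fit was tested on simulated data. Alternatives were each array left out, a replicate block, fewer arrays, another quantile normalization, brighter probe sets only, a trended robust variance and a choroid covariate, and, chosen after seeing the data, leaving out APPsα-DM cortex 2 and APLP2-KO cortex 3, high in Ttr. Deviations of same-numbered hippocampus and cortex arrays correlated at 0.11 to 0.16 in APLP2-KO (3 pairs) and at 0.02 to 0.08 in APPsα-DM. Arrays of different genotypes, thus of different mice, reached 0.25, so that such values do not settle the pairing. The main tests use no pairing, and the replicate block is given for both genotypes.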

Additional observations from a re-analysis of the deposited data

How the results depend on the processing

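No call changed among the 507 recomputed genotype values of the members, and 36 values changed sign, each a difference that was not called. The 507 include values of the unassigned probe set, which was not tested and so had no call to keep. It kept its sign. App 1420621_a_at stayed between -4.63 and -4.53 in hippocampus and between -4.79 and -4.54 in cortex. Between the tissues, 24 of 306 member values lost a call and 4 gained one. The count of members called in APPsα-DM, 2 of 12, was 0 with only the arrays compared, 0 with the choroid covariate, 1 with the replicate block (App 1427442_a_at at an adjusted p of 0.0669), 1 without APPsα-DM cortex 2 and APLP2-KO cortex 3, and 0 to 2 when single arrays were left out. In APLP2-KO, 1 of 12 became 0 with the replicate block, 0 with only the arrays compared, 0 with quantile normalization again, and 0 to 1 without single arrays. Without those cortex arrays, high in Ttr, it was 1, but App 1438374_x_at in place of Aplp2 1423739_x_at. Aplp2 1423739_x_at was called in APPsα-DM among brighter probe sets only (adjusted p = 0.0198) and with a trended robust variance (0.0215). Same-numbered arrays of the 2 genotypes come from different mice, and their correlations ran from -0.25 to 0.21. Between the genotypes the replicate block left 2 members called in each tissue. Fewer probe sets tested or fewer arrays explain some of these shifts by construction, and otherwise the cause was not tested. Of 744 recomputed values of other named genes, 23 lost a call (Timmdc1, Bace2 and Lgmn). With 3 arrays per group and so few calls between the genotypes, differences there such as 0.54 ± 0.08 (B9d1 in hippocampus, adjusted p = 0.186) did not pass. Larger differences with a wider spread, such as 0.79 ± 0.42 for the choroid plexus marker Col8a2 in hippocampus, did not pass either.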
